A study of Rattus norvegicus with 12 samples.

Results

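The question addressed here was which genes of UMR-106 cells, a rat osteosarcoma line with osteoblast-like features, answered a change of NaCl differently once NFAT5 had been deleted. The comparison took 4 groups of 3 libraries each: NFAT5KO cells with +NaCl, NFAT5KO cells with -NaCl, control cells (genotype labelled WT) with +NaCl and control cells with -NaCl. The medium held 20 mM more or 20 mM less NaCl for 24 h, so that the media of each genotype were 40 mM apart, and all 4 groups shared a medium with calcitriol, the active form of vitamin D. The NFAT5KO line was grown from 1 cell after CRISPR/Cas9 editing with guides against exons at the start of the gene, so deletion of NFAT5 and any other trait of that clone cannot be told apart. For each gene, the response is the log2 of +NaCl over -NaCl within a genotype, and the difference is the response of NFAT5KO cells minus that of control cells. Of 20190 genes listed in at least 1 of the 2 deposited tables, 18058 stood in both, and the 16849 whose mean over the 12 libraries reached 1 normalized read count were tested. The difference passed an adjusted p of 0.05 in 304 genes (limma, Benjamini-Hochberg adjustment over all genes tested).

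NFAT5, also called TonEBP, is a transcription factor that accumulates in the nucleus when extracellular tonicity rises and binds a short DNA element, the tonicity-responsive enhancer. In kidney cells its targets include transporters and enzymes that build up organic osmolytes, chaperones and subunits of the sodium pump. A cell without it can still answer NaCl through other routes, so a response may be lost, weakened, left as it was, turned round, or gained. Osteoblasts make and mineralize bone matrix, which is mainly collagen with proteoglycans and mineral-binding glycoproteins.

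Depth, as reads recovered from the normalized counts, was 14267946 to 21676047 per library in NFAT5KO cells with +NaCl (median 15094072) and 16333851 to 22798804 with -NaCl (median 21232480), against control libraries of 15030201 to 18242088 with +NaCl (median 15647893) and 16379844 to 19127881 with -NaCl (median 18476590). The study calls the libraries of a group biological replicates, its term for independent experiments, and the labels do not say how they were cultured, so the p values measure the spread between these libraries. A single library stood apart: along the first principal component of NFAT5KO cells, which held 46.9% of their variance, the +NaCl libraries lay at -14.19, -18.92 and -15.67, and the -NaCl libraries at 5.74, 23.26 and 19.78. Replicate 1 of NFAT5KO cells with -NaCl therefore lay nearer to the +NaCl libraries than its companions did, and without it the difference passed in 247 genes. All 10 osteoblast markers were tested, with summed levels of 92868 to 93997 normalized counts in NFAT5KO cells with +NaCl and 72466 to 83224 with -NaCl, against control sums of 110506 to 117473 with +NaCl and 65865 to 70105 with -NaCl. Sums of 4 osteocyte markers were 584 to 705 in NFAT5KO cells with +NaCl and 896 to 1023 with -NaCl, against control sums of 1591 to 1772 with +NaCl and 2120.1 to 2212 with -NaCl. These sums were lower with +NaCl in both genotypes, where the osteoblast sums were higher. The 4 markers did not move together: 1 rose and 2 fell in control cells, and 1 fell and none rose in NFAT5KO cells. Their mean log2 levels overlapped between media in both genotypes. Sums of 5 chondrocyte markers were 475 to 509 in NFAT5KO cells with +NaCl and 495 to 582 with -NaCl, against control sums of 717 to 761 with +NaCl and 662 to 707 with -NaCl. The part of such cells in the results was not tested. Summed markers of adipocytes, leukocytes, endothelium and muscle stayed at or below 97.3 normalized counts in each library, and Ptprc, Cd3e, Pecam1 and Myod1 were not among the genes tested. In bulk libraries, fewer cells of a kind and less RNA per cell cannot be told apart.

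Nfat5 itself, the targeted gene, was counted at 1403, 1590.4 and 1626 in NFAT5KO cells with +NaCl and 1036, 792 and 843 with -NaCl, against 4292, 4217 and 4575 in control cells with +NaCl and 2925, 2689 and 2799 with -NaCl. Reads of the gene were thus fewer in every NFAT5KO library than in any control library, in tables that were normalized separately, and a gene count does not show which exons they came from. Its own response was 0.80 in NFAT5KO cells and 0.64 in control cells, and the difference of 0.16 (SE 0.12, adjusted p = 0.611) did not pass. The paper reports a complete loss of NFAT5 protein in this clone by immunoblot. It also detected no Nfat5 mRNA there by quantitative PCR, with primers used to check the deletion, so these reads do not measure NFAT5 protein.

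The difference was negative in 243 of the 304 genes (1.44% of all genes tested) and positive in 61 (0.362%). Before adjustment, 2195 genes (13.0%) were below 0.05. Within a genotype far more genes passed: 1576 rose (9.35%) and 1596 fell (9.47%) with +NaCl in NFAT5KO cells, and 2234 rose (13.3%) and 2140 fell (12.7%) in control cells. The 304 genes were sorted by both responses. A response was called lost when control cells passed and NFAT5KO cells did not and moved less. It was weakened when both passed in one direction with the smaller size in NFAT5KO cells, and reversed when both passed in opposite directions. It was gained when NFAT5KO cells alone passed and moved more, and strengthened when both passed in one direction with the larger size in NFAT5KO cells. Lost responses were the most frequent with 189 genes (62.2%), followed by 53 weakened, 36 gained, 22 reversed and 4 strengthened.

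**Figure D1:**
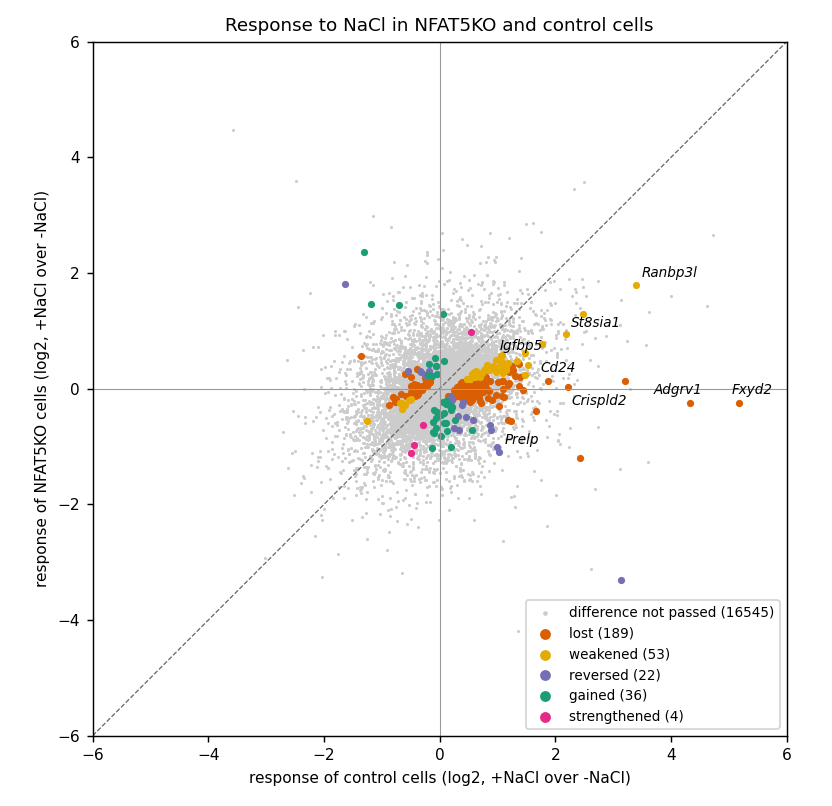
Response of NFAT5KO cells (vertical axis) against the response of control cells (horizontal axis), both as log2 of +NaCl over -NaCl, 1 point per gene tested, coloured by class; the dashed line marks equal responses. The 189 lost genes lie along the horizontal axis, 155 of them to the right, and most weakened genes lie between that axis and the dashed line.

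Rises made up most of what was lost: 155 of the 189 lost genes rose in control cells and 34 fell. The median response of the lost genes, along the direction of the control response, was 0 in NFAT5KO cells and 0.53 in control cells, with 94 genes on the same side as in control cells and 95 on the opposite side. Because a response that fails a test need not be absent, the interval was examined too. In 172 of the 189 lost genes (145 that rose and 27 that fell) the 95% interval of the NFAT5KO response stayed under 50% of the control response. The same values had sorted these genes, and a passed difference with a small NFAT5KO response favours such an interval. The count is therefore a description and cannot show separately that a response was absent. A further 2098 genes passed in control cells and not in NFAT5KO cells while their difference did not pass, and these were not sorted.

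The largest lost rise was that of Fxyd2, the gamma subunit that modulates the sodium pump. NFAT5KO cells had 1.3, 0 and 0 normalized counts with +NaCl and 0.8, 1.1 and 0 with -NaCl, against 269.5, 275 and 321 in control cells with +NaCl and 14.1, 6.2 and 3.7 with -NaCl. NFAT5KO libraries held 1 read in all with +NaCl and 2 with -NaCl, so no fold is given for them. The control response was 5.17 and the difference -5.42 (SE 0.71, adjusted p = 0.000555), a size that depends on the pseudocount, and edgeR alone among the other settings gave an adjusted p above the threshold (0.133). Adgrv1, a very large adhesion receptor of the inner ear and retina, had 10.2, 2.4 and 5.9 in NFAT5KO cells with +NaCl and 10.4, 4.5 and 6 with -NaCl, against 197, 185 and 170.1 in control cells with +NaCl and 9.7, 4.1 and 13 with -NaCl. Both genes were thus near the floor in every group except control cells with +NaCl, where no library overlapped any other.

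Crispld2, which encodes a secreted glycoprotein, gave the smallest p of all genes. NFAT5KO cells had 297, 311 and 285 normalized counts with +NaCl and 274, 281 and 321 with -NaCl, against 1195, 1142 and 1238 in control cells with +NaCl and 273, 238 and 256 with -NaCl. Its NFAT5KO libraries with +NaCl and -NaCl overlapped, and its control libraries differed by 2.22 on the log2 scale (difference -2.19, SE 0.12, adjusted p = 5.93e-08). Cd24, a small glycosylated surface protein, had 202, 211 and 221 in NFAT5KO cells with +NaCl and 189, 202 and 188 with -NaCl, against 1724, 1494 and 1566 in control cells with +NaCl and 435, 418 and 448 with -NaCl. The response of Cd24 was 0.13 in NFAT5KO cells and 1.87 in control cells, and the difference -1.74 (SE 0.11, adjusted p = 1.71e-07). Unlike Crispld2, Cd24 was lower in NFAT5KO cells in both media, on separately normalized tables.

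Cilp2, a cartilage matrix protein, had 70.2, 57.2 and 72 normalized counts in NFAT5KO cells with +NaCl and 85.3, 108 and 102 with -NaCl, against 179, 175 and 177 in control cells with +NaCl and 54.6, 74.5 and 101 with -NaCl. The NFAT5KO libraries with +NaCl were all below those with -NaCl, although that response did not pass (-0.56, adjusted p = 0.0575), and the difference was -1.80 (SE 0.28, adjusted p = 0.00203). Slc14a1, which encodes the urea transporter UT-B, had 137, 129 and 148 in NFAT5KO cells with +NaCl and 159.5, 123 and 136 with -NaCl, against 165, 187 and 219 in control cells with +NaCl and 67.8, 66.3 and 73.5 with -NaCl (difference -1.45, SE 0.20, adjusted p = 0.00087). Every NFAT5KO library of Slc14a1 lay above the control libraries with -NaCl and below those with +NaCl. The same order held for Tm4sf1, a tetraspanin-related surface protein, with 80.4, 87 and 81.4 in NFAT5KO cells with +NaCl and 94.9, 68.3 and 78.6 with -NaCl, against 151, 121 and 126 in control cells with +NaCl and 56.3, 45.5 and 50.3 with -NaCl (difference -1.32, adjusted p = 0.0081). Pla2r1, a receptor for secreted phospholipases, had a difference of -1.31 (SE 0.28, adjusted p = 0.0273) and lost its call in 7 of the 12 fits that left out 1 library (adjusted p up to 0.0758).

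**Figure D2:**
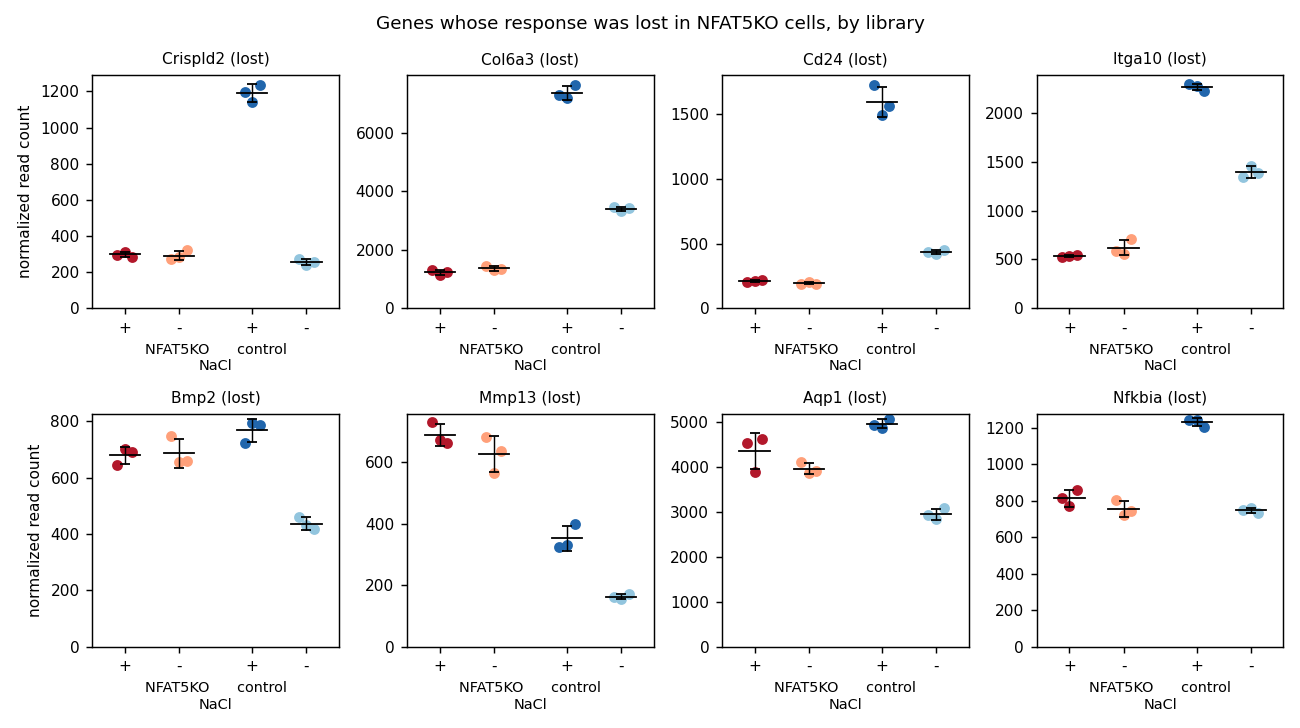
Normalized read counts of 8 genes whose response was lost, by library; points are the 3 libraries of a group, lines the mean and bars the SD, with NFAT5KO cells left of control cells and +NaCl left of -NaCl. Control libraries with +NaCl lie above control libraries with -NaCl in each panel, while the NFAT5KO groups lie close together; the tables of the genotypes were normalized separately.

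Collagen chains were prominent among the lost and weakened responses. Of 27 chains tested, 7 had a lower difference and none a higher one (1.44% and 0.362% of all genes), with a median difference of -0.27 against 0 over all genes. The 3 chains of collagen VI, a beaded filament of the pericellular matrix, were lost together, with differences of -0.95 for Col6a1, -0.60 for Col6a2 and -1.27 for Col6a3. Col6a3 had 1301, 1145 and 1234 normalized counts in NFAT5KO cells with +NaCl and 1441, 1292 and 1353 with -NaCl, against 7306, 7188 and 7651 in control cells with +NaCl and 3468, 3334 and 3421 with -NaCl (adjusted p = 1.71e-07). It was thus higher in every control library with +NaCl than in any with -NaCl, and its NFAT5KO groups overlapped. The response of Col6a1 was 0.42 in NFAT5KO cells (adjusted p = 0.0677) and 1.37 in control cells, and that of Col6a2 was 0.006 in NFAT5KO cells (adjusted p = 0.968) and 0.61 in control cells. Col6a1 and Col6a2, beyond the members chosen by p, were named after their values were seen, to complete the trimer.

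Col13a1, a membrane-bound collagen, had 822, 915 and 864 normalized counts in NFAT5KO cells with +NaCl and 806, 854 and 823 with -NaCl, against 1582, 1486 and 1526 in control cells with +NaCl and 887, 903 and 877 with -NaCl (difference -0.72, SE 0.076). Col11a2, a fibrillar chain best known from cartilage, had an NFAT5KO response of 0.12, a control response of 1.01 and a difference of -0.89 (SE 0.15, adjusted p = 0.00455). Col3a1, a fibrillar chain of soft tissue, was weakened with an NFAT5KO response of 0.62 and a control response of 1.47 (difference -0.85). The chains of collagen I, the main protein of bone, did not pass: the difference was -0.27 for Col1a1 (SE 0.096, adjusted p = 0.211) and -0.65 for Col1a2 (SE 0.36, adjusted p = 0.479). Col3a1 and both chains of collagen I were likewise named after their values were seen. Among the enzymes that modify collagen, 4 of 25 had a lower difference (16%, against 1.44% of all genes) and none a higher one, with a median of -0.19. The lower count was 2 without replicate 1 or 3 of control cells with +NaCl or replicate 1 with -NaCl. Plod2, the lysyl hydroxylase that acts on collagen telopeptides, was weakened: it had 3185, 3089 and 3141 in NFAT5KO cells with +NaCl and 2759.7, 2462 and 2517 with -NaCl, against 5208, 5525 and 5595 in control cells with +NaCl and 2789.9, 2859 and 2648 with -NaCl (difference -0.69, SE 0.071). Loxl4, a lysyl oxidase that forms cross-links, was lost with a difference of -0.71 (SE 0.099), as was Colgalt1, which adds galactose to hydroxylysine, with -0.32 (SE 0.068; call lost in 4 of the 12 fits without 1 library, adjusted p up to 0.0667).

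Genes of the sodium pump formed another group. Of 43 genes of sodium and ion transport, 4 had a lower difference (9.3%, against 1.44% of all genes) and none a higher one, with a median of -0.10. Of these 4 genes, 3 encode parts of the Na+/K+-ATPase. Atp1b3, a beta subunit, was lost, with 5438, 5429.9 and 5706 normalized counts in NFAT5KO cells with +NaCl and 5578, 5411 and 5208 with -NaCl, against 6380, 6323 and 6644 in control cells with +NaCl and 4404, 4507 and 4547 with -NaCl (difference -0.49, SE 0.06). The others are Fxyd2, whose values open the account of the lost rises, and Atp1b1, another beta subunit, which was reversed.

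Of 17 genes tied to the tonicity response, 4 had a lower difference (23.5%, against 1.44% of all genes) and none a higher one, with a median of -0.27. They were Fxyd2, Atp1b1, Aqp1 and Akr1b1. Aqp1, a water channel, had 4545, 3903 and 4632 normalized counts in NFAT5KO cells with +NaCl and 4116, 3877 and 3917 with -NaCl, against 4941, 4884 and 5087 in control cells with +NaCl and 2932, 2848 and 3084 with -NaCl (difference -0.62, SE 0.082, adjusted p = 0.000623). Control libraries of Aqp1 did not overlap between media, and those of NFAT5KO cells did. Akr1b1, aldose reductase, which makes sorbitol, was named after its values were seen: it fell in NFAT5KO cells (-0.26), its control response of 0.12 did not pass (adjusted p = 0.117), and the difference was -0.38 (SE 0.077, adjusted p = 0.0192). The transporters of taurine and of small neutral amino acids did not pass, with -0.19 for Slc6a6 (adjusted p = 0.412) and -0.20 for Slc38a2 (adjusted p = 0.436), both likewise named after their values were seen. The study itself had named genes on these samples, which makes their direction no independent evidence. Of 22 of those tested, 6 had a lower difference (27.3%, against 1.44% of all genes) and none a higher one.

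Osteoblast genes, 39 in number, held 9 with a lower difference (23.1%, against 1.44% of all genes) and none with a higher one, and a median of -0.29. Without 1 library the lower count was 5 to 11, with 5 without control +NaCl replicate 3. Mmp13, the collagenase of bone and cartilage, had 729.7, 673 and 661 normalized counts in NFAT5KO cells with +NaCl and 682, 563 and 635 with -NaCl, against 324, 331 and 400.2 in control cells with +NaCl and 163, 155 and 170.3 with -NaCl (NFAT5KO response 0.14, control response 1.10, difference -0.96, SE 0.13). Every NFAT5KO library of Mmp13 lay above every control library, on separately normalized tables. Bmp2, a bone-inducing ligand, had 646, 702 and 692 in NFAT5KO cells with +NaCl and 747, 654 and 659 with -NaCl, against 721, 794 and 787 in control cells with +NaCl and 461, 433 and 416 with -NaCl (difference -0.82, SE 0.10). Alpl, the alkaline phosphatase that frees phosphate for mineral, had 11721, 10146 and 11495 in NFAT5KO cells with +NaCl and 12250.3, 11677 and 11689.6 with -NaCl, against 18256, 17207 and 17901 in control cells with +NaCl and 12384, 12475 and 13805 with -NaCl (difference -0.56, SE 0.082). All 3 were lost, and their NFAT5KO libraries overlapped between media.

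Enpp1 and Ankh, which supply pyrophosphate outside the cell, were weakened instead. Enpp1, which makes pyrophosphate, had 2239, 2545 and 2449.9 normalized counts in NFAT5KO cells with +NaCl and 1908, 1559.9 and 1677 with -NaCl, against 1906, 1888 and 1924 in control cells with +NaCl and 986, 957 and 958 with -NaCl (difference -0.48, SE 0.092). Ankh, which exports ATP and pyrophosphate, had an NFAT5KO response of 0.42, a control response of 0.82 and a difference of -0.40 (SE 0.079), and its call was lost when replicate 3 of control cells with +NaCl or replicate 2 with -NaCl was left out (adjusted p up to 0.0572). Of 46 genes of the BMP and TGF-beta pathways, 4 had a lower difference (8.7%, against 1.44% of all genes) and none a higher one (median -0.10). Grem1, a secreted BMP antagonist, was weakened with 594, 534 and 620.3 in NFAT5KO cells with +NaCl and 479, 409.8 and 365 with -NaCl, against 436, 449 and 476 in control cells with +NaCl and 169.9, 169 and 197 with -NaCl (difference -0.86, SE 0.14), and Smad6, an inhibitory SMAD, was lost (difference -0.54, SE 0.091).

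Adhesion and signalling genes completed the lost rises. Itga10, an integrin subunit that binds collagen, had 521, 539.7 and 544 normalized counts in NFAT5KO cells with +NaCl and 590.2, 559 and 710.4 with -NaCl, against 2292, 2269 and 2227 in control cells with +NaCl and 1339.5, 1459 and 1386 with -NaCl (difference -0.90, SE 0.10, adjusted p = 0.000163). NFAT5KO libraries with +NaCl all lay below those with -NaCl, although that response did not pass (-0.20, adjusted p = 0.0607). Of 30 NF-kB and cytokine genes, 3 had a lower difference (10%, against 1.44% of all genes) and none a higher one (median -0.02). Nfkbia, the NF-kB inhibitor that NF-kB itself induces, had 814, 769.6 and 861 in NFAT5KO cells with +NaCl and 807, 721 and 745 with -NaCl, against 1242, 1246 and 1207 in control cells with +NaCl and 751, 761 and 735 with -NaCl (difference -0.61, SE 0.083). Nfkb1 and Nfkb2, which encode the p50 and p52 precursors, had differences of -0.38 (SE 0.071) and -0.47 (SE 0.10; call lost in 7 of the 12 fits without 1 library, adjusted p up to 0.0803). All 3 were lost.

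MAP kinase phosphatases went both ways. Dusp1 lost a rise, with 695, 681 and 714 normalized counts in NFAT5KO cells with +NaCl and 645, 714 and 752 with -NaCl, against 1157, 1061 and 1335 in control cells with +NaCl and 665, 645 and 715 with -NaCl (difference -0.82, SE 0.11). Dusp4 lost a fall, with 1109.8, 1310.4 and 1243 in NFAT5KO cells with +NaCl and 1249, 1050.4 and 1237 with -NaCl, against 576, 582 and 593 in control cells with +NaCl and 832, 782 and 867 with -NaCl (difference 0.55, SE 0.11). The NFAT5KO libraries of both genes overlapped between media. Chst12, a sulfotransferase of chondroitin and dermatan sulfate, lost a control response of 1.21 (difference -1.11, SE 0.15), Hk1, a hexokinase, one of 0.60 (difference -0.63, SE 0.10), and Plat, tissue plasminogen activator, one of 0.80 (difference -0.83, SE 0.15).

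The 34 lost falls included several whose calls were often lost when any 1 of several libraries was left out. Hdac6, a cytoplasmic deacetylase, had 181, 218 and 118 normalized counts in NFAT5KO cells with +NaCl and 94.1, 112 and 134 with -NaCl, against 43, 32.8 and 43.2 in control cells with +NaCl and 136, 93.2 and 83.8 with -NaCl (difference 1.92, SE 0.33, adjusted p = 0.00591). Its spread was wide, and Pqbp1 overlaps it on the same strand at a mean of 507 normalized counts, so part of its reads may belong to that gene. Scn8a, a voltage-gated sodium channel, had 347, 341 and 331 in NFAT5KO cells with +NaCl and 361, 349 and 418 with -NaCl, against 299, 286 and 277 in control cells with +NaCl and 492, 479 and 544 with -NaCl (difference 0.67, SE 0.12, adjusted p = 0.00706). Among genes with a mean of 50 normalized counts or more, it was the only one of the 6 largest lost falls, apart from Hdac6, that kept its call without each library. Dbf4, the activator of the kinase that fires replication origins, had a difference of 0.85, Cenpu, a centromere protein, one of 0.60, Gk, glycerol kinase, one of 0.70, and Atp13a3, a transporter of polyamines, one of 0.74. These 4 lost their calls in 6, 8, 8 and 11 of the 12 fits without 1 library, in that order, with adjusted p values of up to 0.0769, 0.0948, 0.0875 and 0.0873. Their NFAT5KO responses, none of which passed, were 0.249, -0.281, 0.203 and 0.345 in the same order (adjusted p = 0.212, 0.0531, 0.228 and 0.0542). Cenpu thus fell and Atp13a3 rose in NFAT5KO cells close to the threshold.

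Sostdc1, a secreted antagonist of BMP and Wnt, also lost a fall, with 1380.2, 1357 and 1405 normalized counts in NFAT5KO cells with +NaCl and 1286, 1386 and 1263 with -NaCl, against 519.8, 463 and 519 in control cells with +NaCl and 676, 719 and 639 with -NaCl (difference 0.51, SE 0.09). Its control libraries did not overlap, and its NFAT5KO libraries did. Of 48 Wnt genes, 2 had a lower and 2 a higher difference (4.17% each, against 1.44% and 0.362% of all genes, median -0.07). Without 1 library, the lower count ranged over 0 to 4, with 0 without NFAT5KO -NaCl replicate 3, control +NaCl replicate 3 or control -NaCl replicate 1. The lower members were the co-receptor Lrp5 (-0.30, SE 0.064) and the R-spondin receptor Lgr4 (-0.33, SE 0.072), both lost.

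All 53 weakened genes kept a response in NFAT5KO cells that passed in the control direction, 45 of them a rise and 8 a fall. Their median response, by size, was 0.33 in NFAT5KO cells and 0.85 in control cells. Ranbp3l, a nuclear export factor for SMADs, had 675, 684 and 682 normalized counts in NFAT5KO cells with +NaCl and 303, 160.1 and 151 with -NaCl, against 1527, 1439 and 1635 in control cells with +NaCl and 141, 152 and 139.6 with -NaCl. Both responses were large, 1.80 in NFAT5KO cells and 3.40 in control cells, with a difference of -1.60 (SE 0.25, adjusted p = 0.00246). Cemip, a hyaluronan-degrading protein, had 674, 609.9 and 685 in NFAT5KO cells with +NaCl and 366, 239.6 and 219 with -NaCl, against 1671, 1529.6 and 1614 in control cells with +NaCl and 305, 323 and 240.1 with -NaCl (difference -1.19, SE 0.21). In both genes replicate 1 of NFAT5KO cells with -NaCl was the highest of its group, and without that library both calls stayed.

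Igfbp5, an IGF-binding protein abundant in bone, had 1361, 1272 and 1326 normalized counts in NFAT5KO cells with +NaCl and 1203, 1011 and 1149 with -NaCl, against 3524, 3527 and 3591 in control cells with +NaCl and 1283, 1261 and 1270.3 with -NaCl. The response was 0.24 in NFAT5KO cells (adjusted p = 0.00877) and 1.48 in control cells (difference -1.24, SE 0.081, adjusted p = 3.42e-07). St8sia1, the sialyltransferase that makes ganglioside GD3, had 209, 217 and 204 in NFAT5KO cells with +NaCl and 113, 104 and 109 with -NaCl, against 985, 906 and 1024 in control cells with +NaCl and 207, 212 and 222 with -NaCl (difference -1.24, SE 0.12). Its NFAT5KO level with +NaCl resembled the control level with -NaCl, on separately normalized tables, and all 4 groups were internally tight. Extl1, a glycosyltransferase of heparan sulfate, had an NFAT5KO response of 0.41 and a control response of 1.53 (difference -1.12, SE 0.18). Of 43 genes of glycosaminoglycan metabolism, 5 had a lower difference (11.6%, against 1.44% of all genes) and none a higher one (median -0.14). The lower count was 3 when replicate 1 or 2 of NFAT5KO cells with +NaCl, replicate 1 with -NaCl, replicate 3 of control cells with +NaCl or replicate 2 with -NaCl was left out.

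The 4 largest weakened falls were Lmcd1, a transcriptional cofactor, Hapln1, which links hyaluronan to proteoglycans, the G1 cyclin Ccnd1 and the non-muscle myosin heavy chain Myh10. Lmcd1 had 338, 350.2 and 349 normalized counts in NFAT5KO cells with +NaCl and 473, 525 and 537 with -NaCl, against 109.8, 138 and 131 in control cells with +NaCl and 297, 305 and 306 with -NaCl (difference 0.70, SE 0.13). Myh10 had 5321, 5206 and 5544 in NFAT5KO cells with +NaCl and 5840, 6168 and 6363 with -NaCl, against 3905, 3883 and 3861 in control cells with +NaCl and 5552, 5538 and 5638 with -NaCl (difference 0.33, SE 0.06). Both genes fell without overlap in either genotype and kept their calls without each library. Hapln1 (0.43, SE 0.094) and Ccnd1 (0.41, SE 0.089) lost theirs in 8 and 9 of the 12 fits without 1 library, with adjusted p values of up to 0.0814 and 0.0808.

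Since NFAT5 acts through a DNA element, the 250 bases before the start of each gene were searched on both strands (RefSeq, build GRCr8; 11100 of the 16849 genes matched). The core of the tonicity-responsive enhancer, TGGAAA, stood in 26 of 118 lost rises (22.0%), 7 of 37 weakened rises (18.9%) and 1625 of all 11100 promoters (14.6%). The longer consensus of the enhancer, which contains the core, stood in 9 of the 155 lost or weakened rises (5.81%) and in 339 of all promoters (3.05%). The core stood in 2 of 28 lost falls (7.14%), 2 of 17 reversed genes (11.8%) and 2 of 26 gained genes (7.69%). None of these 3 sets held the consensus. The median share of the letters G and C was 63.4% in lost rises and 60.0% over all promoters. An AP-1 motif, TGANTCA, searched for comparison, stood in 3 of 118 lost rises (2.54%) and in 488 of all promoters (4.40%). These shares are descriptions of letters within a short window, and enhancers elsewhere were not searched. The 9 genes with the consensus were Igfbp5, St8sia1, Sema3d, Nfkbia, Col11a2, Ilf2, Mrpl45, Reck and Ifi27. The windows of the 4 whose values are given here are shown on the strand of the gene, with the consensus match in capitals, so that its place and its neighbours can be read.
Igfbp5, chr9:81914188-81914437, minus strand: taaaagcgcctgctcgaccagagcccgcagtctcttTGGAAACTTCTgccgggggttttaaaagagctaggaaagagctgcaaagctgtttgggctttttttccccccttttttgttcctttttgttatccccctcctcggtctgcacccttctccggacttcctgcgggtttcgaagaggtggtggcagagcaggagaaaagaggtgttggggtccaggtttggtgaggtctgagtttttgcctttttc
St8sia1, chr4:177651554-177651803, minus strand: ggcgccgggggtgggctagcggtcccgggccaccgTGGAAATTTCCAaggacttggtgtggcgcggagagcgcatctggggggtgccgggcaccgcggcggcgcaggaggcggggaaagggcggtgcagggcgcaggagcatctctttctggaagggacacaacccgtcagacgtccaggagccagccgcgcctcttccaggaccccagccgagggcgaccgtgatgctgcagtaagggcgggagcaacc
Nfkbia, chr6:78597073-78597322, minus strand: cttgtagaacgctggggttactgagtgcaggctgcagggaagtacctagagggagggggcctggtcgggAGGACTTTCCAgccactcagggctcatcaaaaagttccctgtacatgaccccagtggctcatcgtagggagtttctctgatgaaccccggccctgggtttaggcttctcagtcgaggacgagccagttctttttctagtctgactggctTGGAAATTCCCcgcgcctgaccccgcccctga
Col11a2, chr20:4817649-4817898, minus strand: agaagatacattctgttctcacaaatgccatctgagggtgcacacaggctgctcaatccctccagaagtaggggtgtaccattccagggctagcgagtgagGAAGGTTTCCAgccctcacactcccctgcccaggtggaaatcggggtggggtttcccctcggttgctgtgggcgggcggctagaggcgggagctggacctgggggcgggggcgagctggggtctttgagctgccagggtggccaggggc
In Igfbp5 the match begins at position -214, where -1 is the base before the start of the gene, and in St8sia1 a match on each strand overlaps the other in 1 run of 12 letters. Nfkbia holds 2 matches, one of them close to the start.

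Reversed responses numbered 22, 16 that rose and 6 that fell in control cells. Prelp, a small leucine-rich proteoglycan, had 38.3, 36.9 and 39.8 normalized counts in NFAT5KO cells with +NaCl and 82.9, 87.3 and 77.7 with -NaCl, against 120, 103 and 131 in control cells with +NaCl and 47.5, 55.9 and 68.9 with -NaCl. It fell by 1.09 on the log2 scale in NFAT5KO cells and rose by 1.03 in control cells (difference -2.12, SE 0.26, adjusted p = 0.000289), with no overlap between media in either genotype. Ngfr, the low-affinity neurotrophin receptor, had 1994, 1695 and 1929 in NFAT5KO cells with +NaCl and 2853, 2458 and 2575 with -NaCl, against 3765, 3708 and 3652 in control cells with +NaCl and 2668, 2625 and 2791 with -NaCl (difference -0.95, SE 0.089, adjusted p = 3.09e-05). At -NaCl the genotypes had similar counts of Ngfr, and +NaCl moved them apart. Atp1b1 had 86.7, 79.8 and 97.5 in NFAT5KO cells with +NaCl and 128, 127 and 155 with -NaCl, against 326, 278 and 262 in control cells with +NaCl and 165, 158 and 145 with -NaCl (difference -1.50, SE 0.18, adjusted p = 0.00032). Nme7 overlaps Atp1b1 on the other strand, and without strand in the counting their reads cannot be told apart.

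Fbxo2, a ubiquitin ligase subunit that binds glycoproteins, had 16.6, 14.3 and 23.7 normalized counts in NFAT5KO cells with +NaCl and 31.9, 29.1 and 28.2 with -NaCl, against 204, 199.9 and 164 in control cells with +NaCl and 112, 95.2 and 97.7 with -NaCl (difference -1.59, SE 0.29). Grin2c, a subunit of the NMDA receptor, had 424, 430.1 and 423 in NFAT5KO cells with +NaCl and 592, 686 and 829 with -NaCl, against 1275, 1314 and 1474 in control cells with +NaCl and 1028, 932 and 1296 with -NaCl (difference -1.04, SE 0.16). The fall of Grin2c in NFAT5KO cells was clear of overlap, while the rise in control cells only just passed (adjusted p = 0.0466) and its libraries overlapped. Olfml2a, a secreted glycoprotein, had a difference of -1.11 (SE 0.25), and its call was lost in 11 of the 12 fits without 1 library (adjusted p up to 0.0963).

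Gained responses numbered 36, of which 24 were falls and 12 rises in NFAT5KO cells. Fbln2, fibulin 2 of elastic and basement membrane matrix, had 121, 120.3 and 121 normalized counts in NFAT5KO cells with +NaCl and 219, 249 and 276 with -NaCl, against 134, 133 and 124 in control cells with +NaCl and 136, 130.4 and 164 with -NaCl (difference -0.89, SE 0.17, adjusted p = 0.0147). Only its NFAT5KO cells with -NaCl stood out, above the other 3 groups. Mgp, an inhibitor of calcification, had 76.5, 84.6 and 72 in NFAT5KO cells with +NaCl and 113, 193 and 179 with -NaCl, against 86.1, 114 and 87.4 in control cells with +NaCl and 81, 73.5 and 94.9 with -NaCl (difference -1.21, SE 0.28), and Ednra, an endothelin receptor, had a difference of -0.86 (SE 0.21). Eno1, the glycolytic enolase, fell in NFAT5KO cells, with 10543, 8951 and 10712 with +NaCl and 13689.9, 14825 and 14231 with -NaCl, against 16753, 16619 and 16891 in control cells with +NaCl and 17460.1, 17793 and 17224 with -NaCl (difference -0.44, SE 0.083). Its control response of -0.062 did not pass (adjusted p = 0.494).

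Other gained genes were less firm. B4galnt3, a glycosyltransferase, had 196, 162 and 206 normalized counts in NFAT5KO cells with +NaCl and 266, 351 and 381 with -NaCl, against 596, 712 and 656 in control cells with +NaCl and 574, 609.7 and 746 with -NaCl (difference -0.84, SE 0.19). Pex19, a peroxisome import factor that overlaps Ctif on the same strand, had a difference of -1.27 (SE 0.30). Zswim8, part of a ubiquitin ligase, had the largest gained difference among genes with a mean of 50 normalized counts or more (2.65, SE 0.64, adjusted p = 0.0471), with 134, 259 and 152 in NFAT5KO cells with +NaCl and 45.5, 140 and 38.4 with -NaCl, against 84.9, 115 and 45.1 in control cells with +NaCl and 119, 309.5 and 145 with -NaCl. Replicate 2 was the highest library of Zswim8 in all 4 groups, and edgeR and DESeq2 did not call it. In the 12 fits without 1 library the call was lost in 11 for Zswim8, 11 for Ednra, 10 for Mgp, 9 for Pex19 and 8 for B4galnt3, with adjusted p values of up to 0.126, 0.123, 0.105, 0.122 and 0.0933. Fbln2 and Eno1 kept their calls in all 12.

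In 4 genes the response was larger in NFAT5KO cells and had the same direction. Fmod, fibromodulin, which binds collagen fibrils, had 1818, 1698 and 1849.9 normalized counts in NFAT5KO cells with +NaCl and 3378, 3679 and 3464 with -NaCl, against 849, 974 and 903 in control cells with +NaCl and 1247, 1277 and 1194 with -NaCl (difference -0.52, SE 0.082, adjusted p = 0.00252). Pdgfa, a growth factor, had 491, 475 and 451 in NFAT5KO cells with +NaCl and 243, 237 and 232 with -NaCl, against 733, 674 and 689 in control cells with +NaCl and 457, 524 and 466 with -NaCl (difference 0.45, SE 0.10). Fmod thus fell further and Pdgfa rose further without NFAT5. Clec11a, a secreted growth factor of bone, had a difference of -0.62 (SE 0.14), and Plod1, a lysyl hydroxylase named after its values were seen, one of -0.34 (SE 0.076). The calls of Pdgfa and Clec11a were each lost in 7 of the 12 fits without 1 library (adjusted p up to 0.101 and 0.0844), while that of Fmod was kept.

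**Figure D3:**
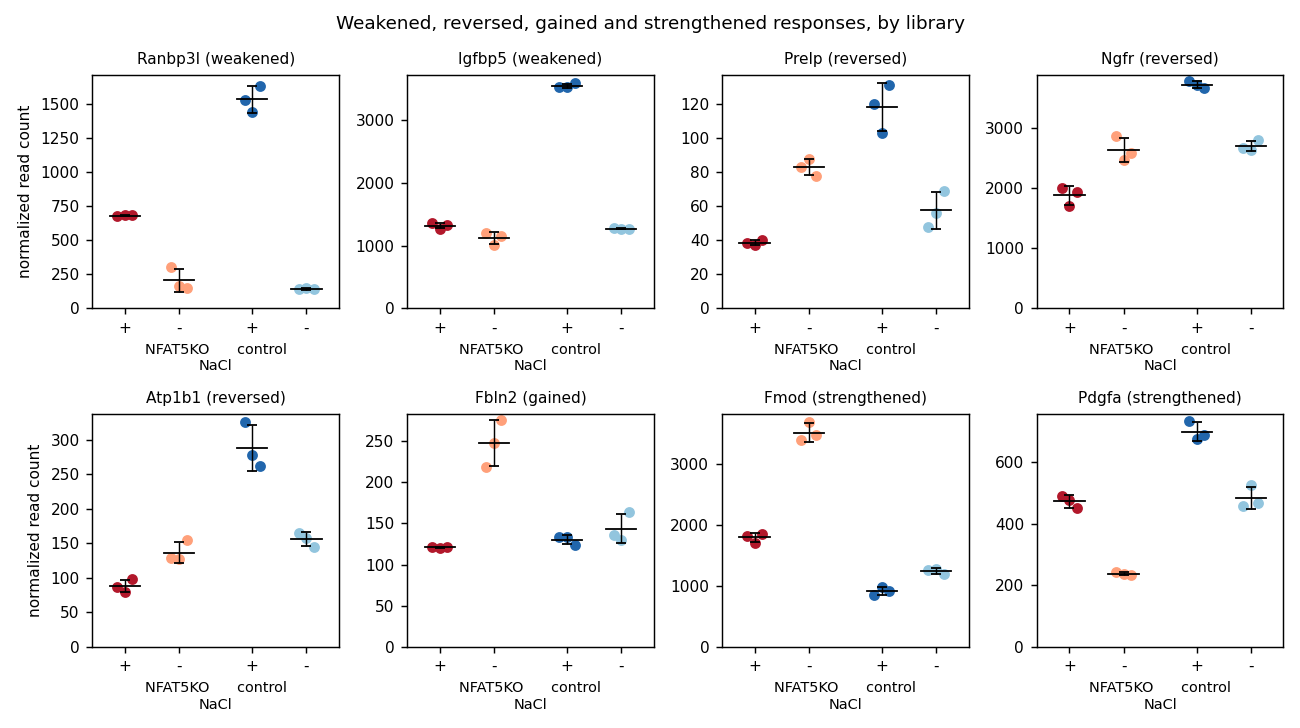
Normalized read counts of 8 genes of the weakened, reversed, gained and strengthened classes, by library; points are the 3 libraries of a group, lines the mean and bars the SD, with NFAT5KO cells left of control cells and +NaCl left of -NaCl. In Prelp, Ngfr and Atp1b1 the step between media points in opposite directions in the 2 genotypes, and in Fbln2 only NFAT5KO cells with -NaCl stand out; the tables of the genotypes were normalized separately.

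Proteoglycans and glycoproteins of the matrix gave the largest number of called genes among the lists. Of 44, 9 had a lower difference (20.5%) and 2 a higher one (4.55%), against 1.44% and 0.362% of all genes (median -0.17). The called genes fell into all 5 classes: Crispld2 among the lost, Srpx2, a secreted ligand of the urokinase receptor, among the weakened (-0.75, SE 0.098), Prelp among the reversed, Mgp and Fbln2 among the gained and Fmod among the strengthened. A count of 3 genes with a lower difference and none with a higher one was found in each of 3 lists, against 1.44% lower over all genes. These were 34 proteases and inhibitors (8.82%, median -0.25), 34 genes of glycolysis and hypoxia (8.82%, median -0.13) and 35 integrins and adhesion genes (8.57%, median -0.04). Of 39 lysosomal and autophagy genes, 2 had a lower difference (5.13%, against 1.44% of all genes) and none a higher one (median -0.18). The protease Ctsd was weakened (-0.39, SE 0.069), and Psap, a precursor of lipid-degrading cofactors, was lost at -0.30 (SE 0.068). The lower count of this list ranged over 1 to 4 without 1 library, and the lowest value arose without any single one of 8 libraries. The aggrecanase Adamts9 (-0.38, SE 0.082), the hypoxia gene Ndrg1 (-0.50, SE 0.11), Igfbp7 (-0.57, SE 0.12) and the immediate early gene Ier3 (-0.85, SE 0.21) passed as well, and lost their calls in 7, 8, 5 and 11 of the 12 fits without 1 library, in that order. Of 15 IGF genes, 2 had a lower difference (13.3%, median 0.05). Of 35 immediate early and feedback genes, 2 had a lower (5.71%) and 1 a higher one (2.86%, median -0.06). Of 34 genes of sterol and fatty acid synthesis, 1, Tm7sf2, had a lower one (2.94%, median -0.09). Over all genes the shares were 1.44% lower and 0.362% higher. The lower count was 1 for IGF genes without replicate 1 or 2 of NFAT5KO cells with -NaCl, replicate 3 of control cells with +NaCl or replicate 1 or 2 with -NaCl, and 1 for immediate early and feedback genes without any single library except NFAT5KO -NaCl replicate 2. Tm7sf2 lost its call in 10 of the 12 fits without 1 library (adjusted p up to 0.137) and in 8 of 15 other settings.

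Genes of DNA replication pointed the other way. Of 40, 17 fell and none rose in NFAT5KO cells, 34 fell and none rose in control cells, and the median difference was 0.16. The difference passed in 3, all higher (7.5%, against 0.362% of all genes). They were Mcm10, a replication initiation factor (0.32, SE 0.07), Tyms, thymidylate synthase (0.33, SE 0.074), and Rfc2, of the clamp loader (0.30, SE 0.074). Tyms had 1552, 1499.8 and 1464 normalized counts in NFAT5KO cells with +NaCl and 1526, 1730.1 and 1683 with -NaCl, against 1076, 1093 and 1074 in control cells with +NaCl and 1479, 1517 and 1461 with -NaCl. Control libraries were well apart between media, and NFAT5KO libraries overlapped. None of the 3 passed without NFAT5KO -NaCl replicate 1, where the list's median was also 0.16, and over the 12 fits without 1 library the count was 0 to 3.

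ATF4 targets, which are induced by amino acid shortage and other stress, had a median difference of 0.58, the highest of the lists described here, without a member that passed. The median was 0.27 without control -NaCl replicate 3, 0.32 with array weights and 0.39 to 0.75 without any other single library. Of 32, 5 fell in NFAT5KO cells and 21 in control cells. At an unadjusted p below 0.05, 15 differences were higher and none lower, against 13.0% of all genes in either direction. Neither edgeR nor DESeq2 called a member of the list. Their mean log2 level was 8.90, 9.00 and 8.99 in NFAT5KO cells with +NaCl and 8.88, 8.98 and 9.64 with -NaCl, against 9.26, 9.64 and 9.67 in control cells with +NaCl and 9.95, 10.08 and 10.76 with -NaCl. Libraries within a group thus differed by up to about as much as the groups did. Asns, asparagine synthetase, was an example named after its values were seen (1.00, SE 0.34, adjusted p = 0.185). Members of 3 other lists did not pass either: 37 mitosis genes (median 0.09), 25 p53 targets (median -0.02) and 34 heat shock genes and chaperones (median 0.07). At an unadjusted p below 0.05, 8 mitosis genes were higher and 1 lower. Among p53 targets 1 was higher and 2 lower, and among heat shock genes and chaperones 2 were higher and 1 lower. These counts are a description, beside the 13.0% of all genes in either direction. In these 3 lists edgeR called none, and DESeq2 called 2 mitosis genes and 1 p53 target.

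**Figure D4:**
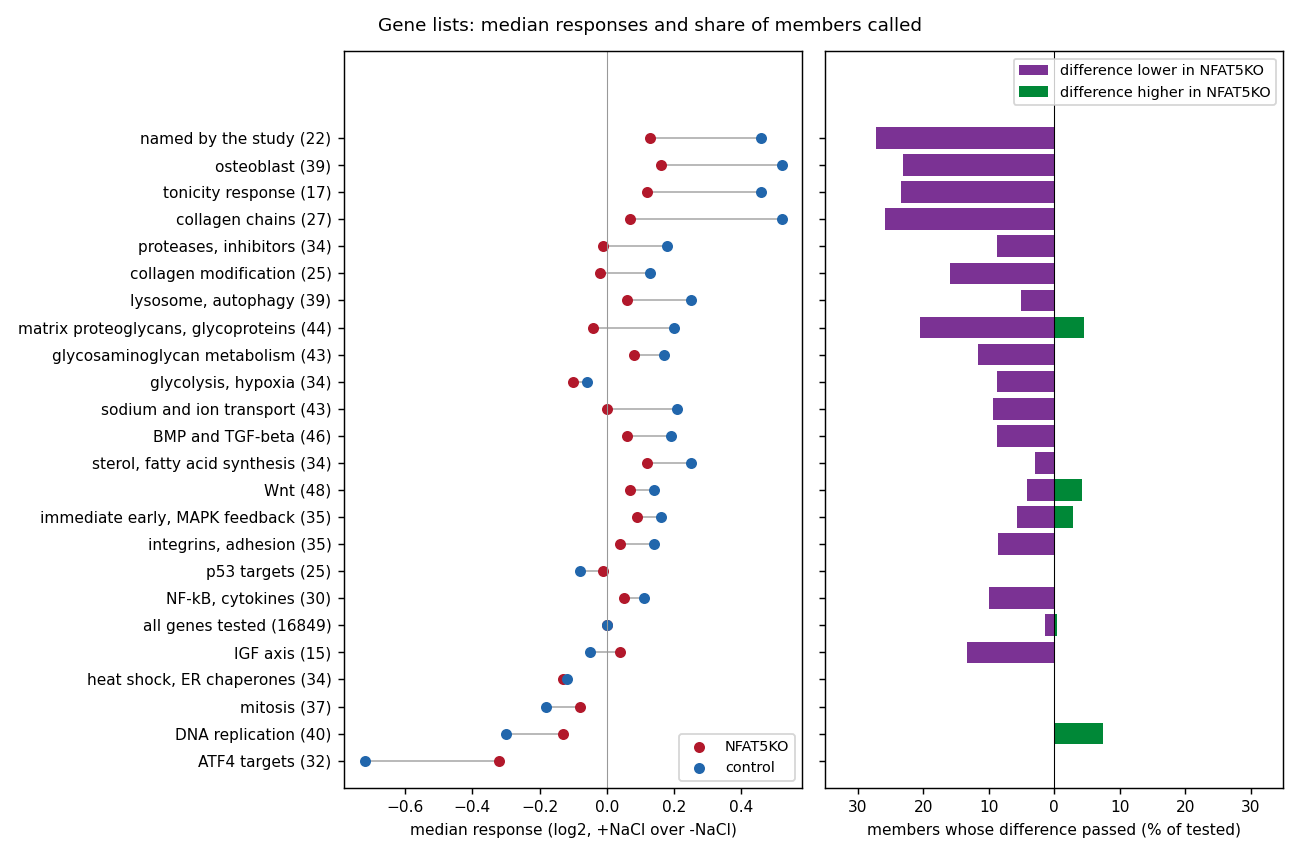
Gene lists ordered by median difference, with the number of genes tested in brackets: left, the median response of NFAT5KO and control cells (log2 of +NaCl over -NaCl); right, the percentage of members whose difference passed, lower to the left and higher to the right. Collagen, osteoblast and tonicity genes have NFAT5KO medians of 0.07 to 0.16 and control medians of 0.46 to 0.52, and ATF4 targets have a wide gap of medians with no member called.

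Whether lost rises came with a different starting level was examined by scaling reads to equal depth across the 2 tables, as a description with no test. For the 155 lost rises the median log2 ratio of NFAT5KO over control cells was -0.52 with +NaCl and 0.03 with -NaCl, against -0.04 in both media over all genes. These genes were chosen by a negative difference, which sets a lower ratio with +NaCl than with -NaCl in advance. The gap between the media is therefore no separate result. With -NaCl, 6 of the 155 (3.87%) lay more than 1 log2 unit below control cells, against 6.49% of all genes. Cd24, Col6a3, Col11a2 and Itga10 were among those already lower with -NaCl, at -1.26, -1.42, -1.75 and -1.27. Mmp13 went against this, at 0.88 with +NaCl and 1.84 with -NaCl, as did Grem1 among the weakened genes, at 0.27 with +NaCl and 1.12 with -NaCl. For the 45 weakened rises the median was -0.43 with +NaCl and 0.04 with -NaCl, a gap that their choice by a negative difference likewise sets in advance.

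Strong responses of control cells, taken as 1 log2 unit or more at a mean of 50 normalized counts or more, numbered 121 rises and 73 falls. The difference passed in 43 of the rises (35.5%) and in 2 of the falls (2.74%), Hdac6 and Lmcd1, against 1.80% of all genes in either direction. The control response is part of the difference, so choosing by a large control response also favours a higher share. The rises had a median response of 0.70 in NFAT5KO cells and 1.20 in control cells, and the falls one of -0.72 in NFAT5KO cells and -1.20 in control cells. The median difference was -0.61 for the rises and 0.45 for the falls, with a median SE of 0.20 and 0.32, so the test had less precision for the falls. In 114 of the 121 rises and 62 of the 73 falls the NFAT5KO response was smaller on the side of the control response, a direction that choosing by large control responses favours. In edgeR the difference passed in 42 rises and 3 falls, in DESeq2 in 54 rises and 6 falls, and in limma without a mean-variance trend in 26 rises and 1 fall.

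Genes on either side of the threshold showed how gradual it is. Just inside were Ufc1 (-0.27, adjusted p = 0.049) and Mrps6 (-0.73, adjusted p = 0.0495), and just outside C1r (-0.27, adjusted p = 0.0502) and Fzd5 (-0.36, adjusted p = 0.0505). Of the 304 genes, 135 passed without each of the 12 libraries in turn (121 lower and 14 higher), and 80 passed in all 25 planned settings (76 lower and 4 higher), of which 53 were lost, 12 weakened, 11 reversed and 3 gained. No gene of the 304 changed the sign of its difference under any setting tried. Among the fits without 1 library, the number that passed was lowest without control +NaCl replicate 3, with 159, and limma without a mean-variance trend called 103.

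**Figure D5:**
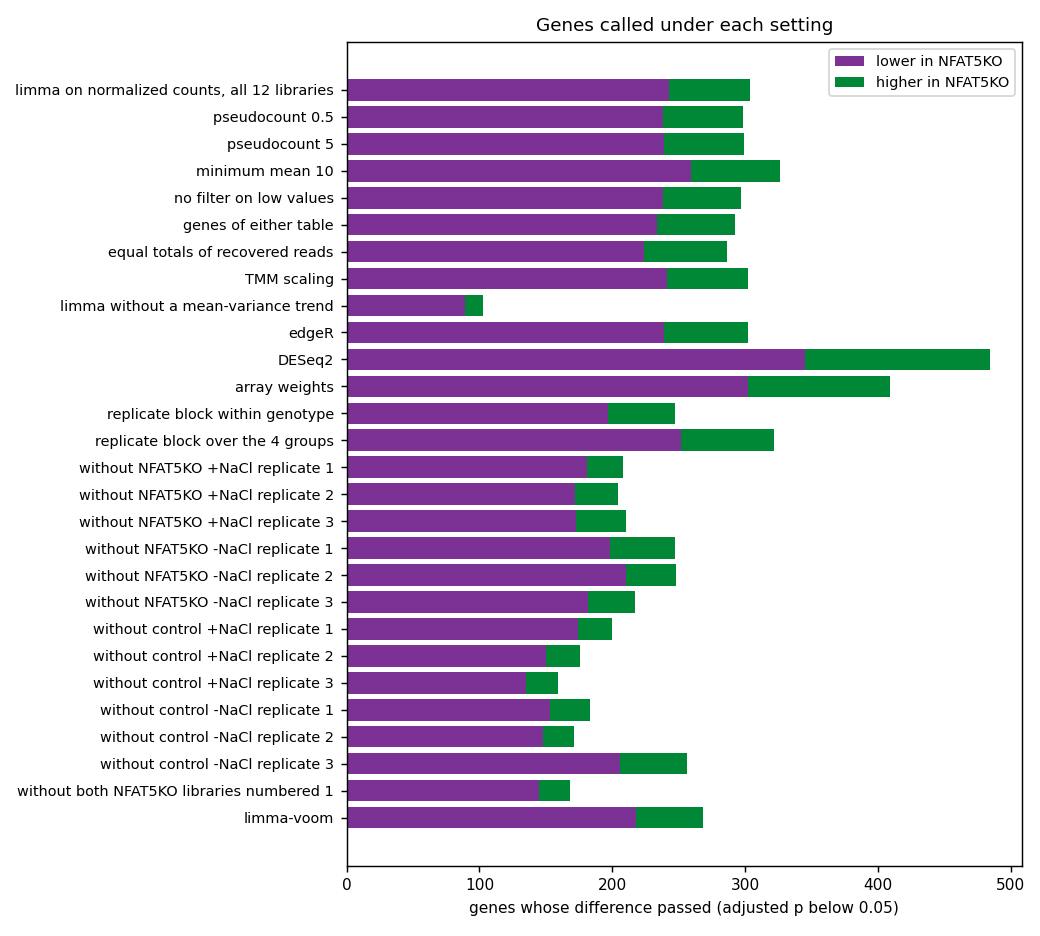
Number of genes whose difference passed an adjusted p of 0.05 under each setting (bars, lower in NFAT5KO cells first, then higher). The count was 304 with all 12 libraries, between 159 and 256 without 1 library, 302 with edgeR, 484 with DESeq2 and 103 in limma without a mean-variance trend.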

How the data were processed

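From poly-A RNA of UMR-106 cells, 12 libraries were prepared with a NEBNext Ultra RNA kit and read from both ends on an Illumina instrument. The authors deposited 2 tables of normalized read counts, a signal made by dividing gene counts by 1 factor per library, separately for NFAT5KO cells (18834 genes) and control cells (19414 genes). The aligner, the counter and the use of strand are not given in the sources used here. The labels name a mouse build, mm10, beside rat gene IDs, so no gene coordinates of the tables are given. The name of each table contradicted the genotype in its column headings. The headings, which match the sample titles, were followed, and Nfat5 was lower in the columns headed as knockout. The deposited fold changes and p-values of the authors, and 24 columns of values per sample that match no label, were not used. In each of the 12 libraries 100.0% of values were whole reads within 0.1 read after that factor was undone.

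The difference between the responses was tested on log2(normalized count + 1), so that fold changes of low genes are understated, with limma 3.58.1 in R 4.3.3: 4 group means, empirical Bayes with a mean-variance trend, and Benjamini-Hochberg adjustment over 16849 genes. A factor common to a table cancels from the difference, except near the floor, where the added 1 keeps it from cancelling in full. Scripts were tested on simulated data. Alternatives were edgeR 4.0.16 and DESeq2 1.42.0 on the recovered reads, pseudocounts of 0.5 and 5, a minimum mean of 10 and none, genes of either table, totals made equal, TMM scaling, no mean-variance trend, array weights, each genotype fitted alone, 2 replicate blocks and 12 fits without 1 library, and, chosen after seeing the data, limma-voom and a fit without both NFAT5KO libraries numbered 1.

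Named genes were those with the largest differences in each class (mean of 50 normalized counts or more), up to 3 called members of each gene list by p (every called member of the list of genes that the study names), Nfat5, and the 2 genes nearest the threshold on each side, besides genes said to be named after their values were seen. The members and lists were chosen with earlier results of these data known, and 2 list members are not reported here. Overlapping genes can share reads: Dbf4 with Adam22, Igfbp7 with Polr2b and Tm7sf2 with Vps51, besides those given with their results. Promoter windows came from RefSeq on build GRCr8 and were matched by gene symbol, or by a RefSeq synonym where the symbol was not found.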

Additional observations from a re-analysis of the deposited data

Results flagged for a closer look

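In 79 named genes the response to NaCl differed between the genotypes by the test of the difference itself (limma, 4 group means, Benjamini-Hochberg adjusted p below 0.05 over all 16849 genes). The values in brackets are differences on the log2 scale, the response of NFAT5KO cells minus that of control cells, and no explanation was weighed.

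Among lost rises, the larger differences were those of Fxyd2 (-5.42), Adgrv1 (-4.57), Crispld2 (-2.19), Cilp2 (-1.80), Cd24 (-1.74), Slc14a1 (-1.45), Tm4sf1 (-1.32), Pla2r1 (-1.31), Col6a3 (-1.27), Chst12 (-1.11), Mmp13 (-0.96), Itga10 (-0.90), Col11a2 (-0.89), Ier3 (-0.85), Plat (-0.83), Bmp2 (-0.82), Dusp1 (-0.82), Mrps6 (-0.73) and Col13a1 (-0.72). The smaller ones were those of Loxl4 (-0.71), Hk1 (-0.63), Aqp1 (-0.62), Nfkbia (-0.61), Igfbp7 (-0.57), Alpl (-0.56), Smad6 (-0.54), Atp1b3 (-0.49), Nfkb2 (-0.47), Tm7sf2 (-0.39), Nfkb1 (-0.38), Adamts9 (-0.38), Lgr4 (-0.33), Colgalt1 (-0.32), Lrp5 (-0.30), Psap (-0.30) and Ufc1 (-0.27). Lost falls gave positive values in Hdac6 (1.92), Dbf4 (0.85), Atp13a3 (0.74), Gk (0.70), Scn8a (0.67), Cenpu (0.60), Dusp4 (0.55), Sostdc1 (0.51), Tyms (0.33) and Rfc2 (0.30).

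Weakened rises were those of Ranbp3l (-1.60), Igfbp5 (-1.24), St8sia1 (-1.24), Cemip (-1.19), Extl1 (-1.12), Grem1 (-0.86), Srpx2 (-0.75), Plod2 (-0.69), Ndrg1 (-0.50), Enpp1 (-0.48), Ankh (-0.40) and Ctsd (-0.39), and weakened falls those of Lmcd1 (0.70), Hapln1 (0.43), Ccnd1 (0.41), Myh10 (0.33) and Mcm10 (0.32). Reversed responses were those of Prelp (-2.12), Fbxo2 (-1.59), Atp1b1 (-1.50), Olfml2a (-1.11), Grin2c (-1.04) and Ngfr (-0.95). Gained responses were falls in Pex19 (-1.27), Mgp (-1.21), Fbln2 (-0.89), Ednra (-0.86), B4galnt3 (-0.84) and Eno1 (-0.44), and in Zswim8 (2.65) a rise. Strengthened responses were those of Clec11a (-0.62), Fmod (-0.52) and Pdgfa (0.45).

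Of the 79 genes, 48 kept their call without each of the 12 libraries in turn and 31 under every setting tried, while 27 lost it in 6 or more of the fits without 1 library.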

How the results depend on the processing

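No gene of the 304 changed the sign of its difference under any setting, and the median difference of all genes moved by less than 0.1. Pseudocounts of 0.5 and 5, either other filter, genes of either table, equal totals, TMM scaling, edgeR (302 genes, 289 of them shared) and limma-voom left every count within 1.5 times of 243 lower, 61 higher, 189 lost, 53 weakened, 22 reversed and 36 gained, as did fitting each genotype alone for the 4 classes. Without a mean-variance trend the counts were 89 lower, 14 higher, 67 lost, 14 weakened, 14 reversed and 7 gained. DESeq2 called 139 higher, with 115 weakened and 65 gained, and 484 in all, of which 297 were shared. Array weights gave 107 higher, 84 weakened, 35 reversed and 57 gained (409 in all). Without both NFAT5KO libraries numbered 1, a fit chosen after seeing the data, 145 were lower and 23 higher, with 89 lost, 25 weakened and 21 gained. The cause of these shifts was not tested, apart from the smaller number of libraries in that fit.

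Without 1 library, the count of lower genes ranged over 135 to 210, of higher genes over 23 to 50, of lost over 98 to 166, of weakened over 30 to 56, of reversed over 10 to 27 and of gained over 9 to 40. The lower count fell below 243 by over 1.5 times without control +NaCl replicate 3 (135) or 2 (150) and without control -NaCl replicate 2 (148) or 1 (153). The higher and gained counts did so without each library except NFAT5KO -NaCl replicate 1 and control -NaCl replicate 3. The lost count did so without any control library except -NaCl replicate 3, the weakened count without NFAT5KO +NaCl replicate 1 or 3, without replicate 2 of either control group or without control +NaCl replicate 3, and the reversed count without replicate 2 of either NFAT5KO group or control +NaCl replicate 2 or 3.

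Libraries of a genotype share replicate numbers, but their deviations from the group means correlated at -0.111 to 0.129 (median -0.001), with 1 of 6 pairs over 0.1, so the numbers were not taken to pair them. A replicate block within genotype gave 247 genes (209 shared), with 22 gained, and a replicate block over the 4 groups gave 322 (274 shared). Genes near the floor, such as Fxyd2 in NFAT5KO cells, are limited by depth.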

Other observations

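Some strong control responses were kept in NFAT5KO cells, and these were chosen after their values were seen. Of 194 control responses of 1 log2 unit or more in genes whose mean reached 50 normalized counts, 9 (6 rises and 3 falls) had a 95% interval of the difference within 0.5 of 0. Dysf, a membrane repair protein of muscle, rose by 1.37 in NFAT5KO cells and by 1.37 in control cells on the log2 scale (difference -0.003, SE 0.18). Smpd3, a neutral sphingomyelinase needed for bone mineral in mice, rose by 1.10 in NFAT5KO cells and by 1.08 in control cells (difference 0.01, SE 0.19). Slit2, a secreted guidance cue, rose by 1.00 in NFAT5KO cells and by 1.11 in control cells (difference -0.11, SE 0.13), and Slc29a4, a monoamine transporter, fell by 1.22 in NFAT5KO cells and by 1.16 in control cells (difference -0.06, SE 0.17).

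The largest difference of all called genes was that of Pcgf1, a polycomb subunit with a mean of 25.3 normalized counts (-6.43, SE 1.49, adjusted p = 0.038 in limma), and it lies below the mean of 50 set for naming. Other low genes with large differences were Tssk2 (3.67, SE 0.84, mean 4.51 normalized counts), Icam2 (-3.63, SE 0.88, mean 1.53 normalized counts) and Cryba1 (3.45, SE 0.81, mean 1.77 normalized counts), all named after their values were seen.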
